A study of Mus musculus with 2 samples.

Results

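Ly49 positive conventional natural killer (NK) cells were examined in droplet-based 3′ scRNA sequencing of live CD45+ cells sorted from mouse liver tumors, a method in which unique molecular identifiers (UMIs) count each captured RNA molecule once. A cell was taken when it held at least 1 UMI of Ncr1 and of Klrb1c, which encode the NK receptors NKp46 and NK1.1, and at least 2 UMIs of Klra4 and Klra8 together, which encode the receptors Ly49D and Ly49H. It also had to hold at most 1 UMI of the T-cell genes Cd3d, Cd3e and Cd3g together, and none of Gzmc, Cd79a or Csf1r. Cells with over 6000 genes or over 25% mitochondrial UMIs had been left out. This gave 1406 of 25814 kept cells, 976 of 14201 under lenvatinib and 430 of 11613 under combo. The choice used measured UMIs of these genes, so their levels describe the choice and are not results.

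The tumors came from male wild-type C57BL/6 J mice, aged 6 to 8 weeks when plasmids for human MYC overexpression and for CRISPR knockout of Trp53 were injected with sleeping beauty transposase into the tail vein. All mice received lenvatinib, a multikinase inhibitor, at 30 mg/kg for 25 days starting 12 days after injection, which gave the lenvatinib-resistant tumors that both groups share. One group was then kept on lenvatinib, and the other received lenvatinib with palbociclib (combo), an inhibitor of the cell cycle kinases CDK4 and CDK6. Each group is 1 library, the number of mice behind it is not given in the sources used here, and no untreated library is among the samples, so treatment and library cannot be told apart and no test between groups was possible.

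NK cells are innate lymphocytes that kill stressed or transformed cells with perforin and granzymes and that release interferon-γ and chemokines. In mice, the Klra genes encode Ly49 receptors, many of which read MHC class I molecules on other cells. Each NK cell expresses its own subset of these receptors. Most of the receptors carry an inhibitory motif, and Ly49D and Ly49H instead activate the cell through the adapter DAP12. In the liver, circulating conventional NK cells, which express Eomes, share space with type 1 innate lymphoid cells (ILC1), which carry CD49a, TRAIL and the interleukin-7 receptor.

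Klra4 (ENSMUSG00000079852, chromosome 6 from 130043731 to 130067271 of mm10, minus strand) and Klra8 (ENSMUSG00000089727, chromosome 6 from 130115226 to 130129898, minus strand) lie in the Ly49 gene cluster. Their promoter windows, 250 bases before to 50 bases after the start, are shown because the choice of cells rests on these near neighbors. The sequences are from RefSeq on GRCm38.p6 (chr6:130067222-130067521 and chr6:130129849-130130148, minus strand), and capitals mark bases with no identical partner when both windows are aligned.
Klra4: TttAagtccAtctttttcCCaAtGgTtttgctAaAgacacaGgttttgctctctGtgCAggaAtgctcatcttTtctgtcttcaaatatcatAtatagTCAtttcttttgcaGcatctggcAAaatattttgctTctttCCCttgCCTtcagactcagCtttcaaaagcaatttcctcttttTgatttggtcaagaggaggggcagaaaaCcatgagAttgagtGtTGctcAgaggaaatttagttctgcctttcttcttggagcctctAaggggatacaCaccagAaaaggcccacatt
Klra8: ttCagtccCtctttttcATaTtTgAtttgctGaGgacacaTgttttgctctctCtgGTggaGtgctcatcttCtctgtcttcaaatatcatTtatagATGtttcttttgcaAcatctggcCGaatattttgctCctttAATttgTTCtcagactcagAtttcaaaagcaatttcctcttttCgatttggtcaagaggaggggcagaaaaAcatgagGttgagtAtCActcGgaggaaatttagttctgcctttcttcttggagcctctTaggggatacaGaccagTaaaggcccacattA
Of 301 aligned columns, 259 were identical, or 86.0%. The window of Klra4 was 48.3% identical to that of Klra1, 48.1% to Klra3, 49.7% to Klra7 and 52.6% to Klra9. The 3′ ends, which this method reads, were less alike, and the last 300 bases of the Klra4 and Klra8 transcripts were 57.2% identical. Klra3 and Klra9 were 98.7% identical in those bases, so reads of these genes could be split between them and their values are uncertain.

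The lenvatinib library held 14509 barcodes and the combo library 11989, and 49 barcodes occurred in both, none of them as a chosen cell in both. The chosen cells had a median of 6958.5 UMIs and 2296 genes under lenvatinib, and of 6469.5 UMIs and 2115.5 genes under combo, with 4.02% and 3.60% mitochondrial UMIs. Scrublet called 14 of the 976 cells and 11 of the 430 cells doublets (1.43% and 2.56%), which were kept. RNA of neutrophils was at higher levels in the combo library. The 8 neutrophil markers summed to 421 CPM (counts scaled to a common total) in the chosen cells under lenvatinib and to 6203 under combo, and in B cells, which also lack them, to 432 and 13852. After each cell had been thinned to 2000 UMIs, S100a8 was found in 20.5% of the chosen cells under lenvatinib and 81.4% under combo, against 27.8% and 82.2% of B cells (median depths before thinning of 3257 and 3413.5 UMIs), so this share is read as background.

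Under combo, a few cells carried most of the RNA of neutrophils and erythroid cells. In that library, 1 cell held 69.0% of its UMIs in the 4 hemoglobin markers, with 5220 of the 5224 Hbb-bs UMIs, and 1 cell held 32.7% in neutrophil markers, with 4797 of the 8302 S100a8 UMIs and 746 of the 955 Ngp UMIs. Over 1% of UMIs in neutrophil, hemoglobin or MHC class II markers was found in 6 cells under lenvatinib and in 11 under combo. Without them, the neutrophil markers summed to 304 CPM under lenvatinib and to 1763 under combo, and the hemoglobin markers to 5.85 and 5.88. Results that these cells touch are given also with the 970 and 419 cells that remained.

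**Figure D1:**
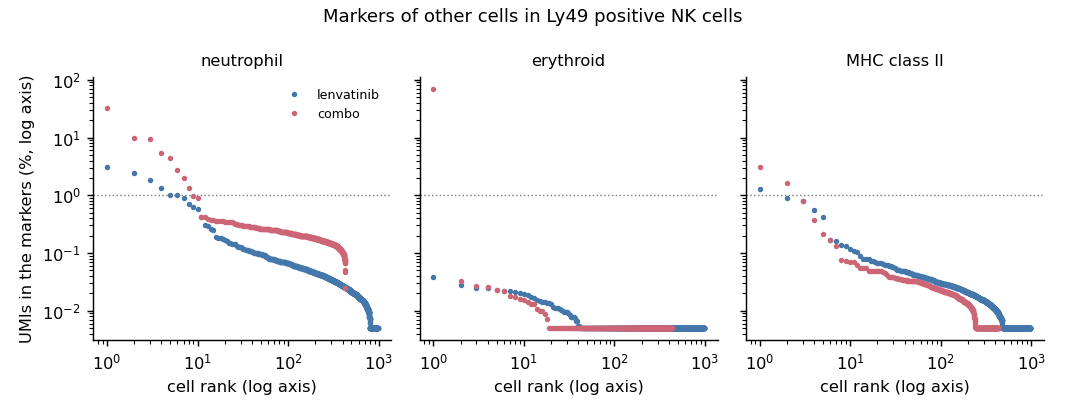
Percent of a cell's UMIs in markers of neutrophils (8 genes), erythroid cells (4 genes) and MHC class II (4 genes), with cells ranked from highest to lowest on log axes. Cells with none are drawn at the lowest level, and the dotted line is 1%. Below the few highest cells, the neutrophil curve under combo (median 0.173%) lies above that under lenvatinib (median 0.0220%).

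The cells expressed the markers of conventional NK cells, and several ILC1 genes were detected at few UMIs. Of 14 NK markers, 13 reached 20 CPM in at least 1 library, and S1pr5, a receptor for leaving tissue, was at 12.1 and 17.0 CPM. The 13 include Ncr1, Klrb1c, Klra4 and Klra8, which the rule used, so those genes are no check of the cells. Eomes, the factor that sets conventional NK cells apart from ILC1, was at 382 CPM under lenvatinib and 245 under combo, against 10.2 and 1.47 in B cells. Itga2, which encodes CD49b, was at 86.3 and 64.2 CPM. Of 11 ILC1 genes, which include Gzmc, 5 reached 20 CPM in at least 1 library. These were Itga1, which encodes CD49a (55.3 and 21.0 CPM), Inpp4b (24.4 and 13.9), Tnfsf10 (21.6 and 9.27), Rora (19.8 and 29.0) and Il7r (12.4 and 21.6). Rora and Il7r were thus higher under combo and the other genes of the 5 lower. Cxcr6 (2.77 and 2.47 CPM), Cd200r1 (3.03 and 1.85) and Tmem176a (5.41 and 5.56) were among those that did not reach it. The 11 T-cell markers summed to 788 and 720 CPM, a sum that the limit on the Cd3 genes holds down and that is no check of the cells.

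**Figure D2:**
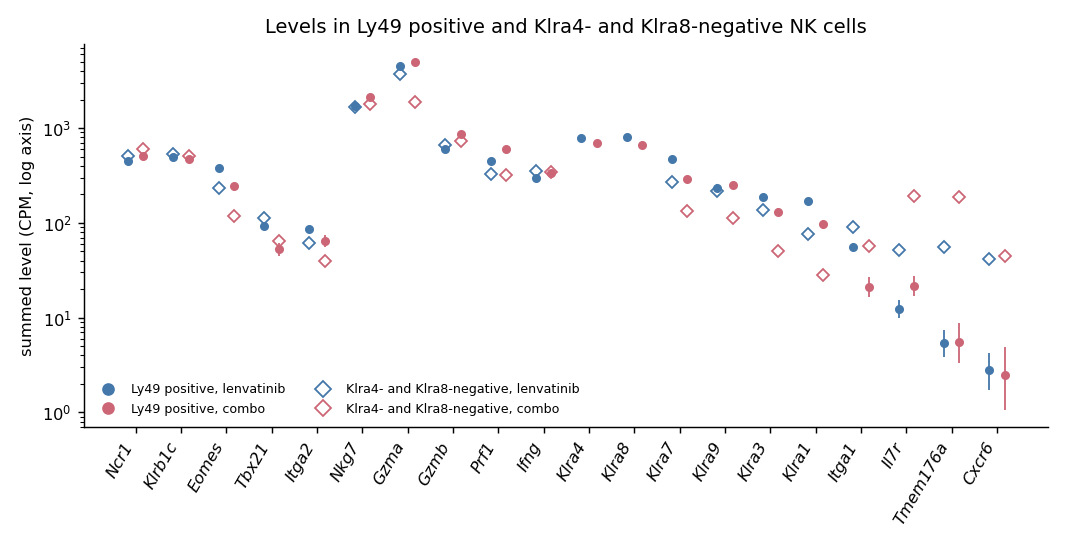
Summed level of NK, Ly49 and ILC1 genes in CPM on a log axis, in Ly49 positive NK cells (filled circles with exact Poisson 95% intervals) and in NK cells with no UMI of Klra4 or Klra8 (open diamonds), by library. Il7r and Tmem176a lie several times higher in the cells without Klra4 and Klra8, and Eomes lies lower there in both libraries.

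Ly49 positive NK cells made up a smaller part of the combo library. Their share of kept cells was 6.87% under lenvatinib (exact Clopper-Pearson 95% interval 6.46% to 7.30%) and 3.70% under combo (3.37% to 4.06%), a ratio of 0.539 (range of 0.461 to 0.629 from the ends of both intervals). Their share of all cells with Ncr1 and Klrb1c that passed the limits on Cd3, Cd79a and Csf1r was 46.6% in both libraries (976 of 2093 and 430 of 922), a ratio of 1.0 (0.889 to 1.12). All such NK cells together were thus a smaller share of the combo library. These intervals cover counting error only, here and below. Of the 1701 and 726 cells that passed every other limit, 95 and 49 held just 1 UMI of Klra4 and Klra8 together, 61 and 23 held 2, and 787 and 330 held at least 5.

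Levels are sums of UMIs over the chosen cells, in CPM of those cells' UMIs, and each is set against the same gene in the other library. A ratio is combo over lenvatinib, with an exact conditional 95% interval in brackets. Of all genes, 5680 reached 20 CPM in at least 1 library. Of these, 1.36% (77 genes) were at least 2-fold higher under combo and 1.88% (107 genes) at least 2-fold lower. A gene that reached 20 CPM in only 1 library is more apt to be called in that direction. The shares over all genes hold the same limit. Without the cells that held RNA of other types, 41 were higher and 105 lower. The median ratio of all tested genes was 0.916, or -0.13 on the log2 scale, and when the libraries were scaled to each other by the median of ratios, every ratio was 1.09 times larger and 97 genes were higher and 68 lower. A gene between 0.916 and 1 is therefore above 1 on that scale, and ratios are best read against 0.916. Before that scaling, 3601 of the 5680 genes, or 63.4%, had a ratio under 1.

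**Figure D3:**
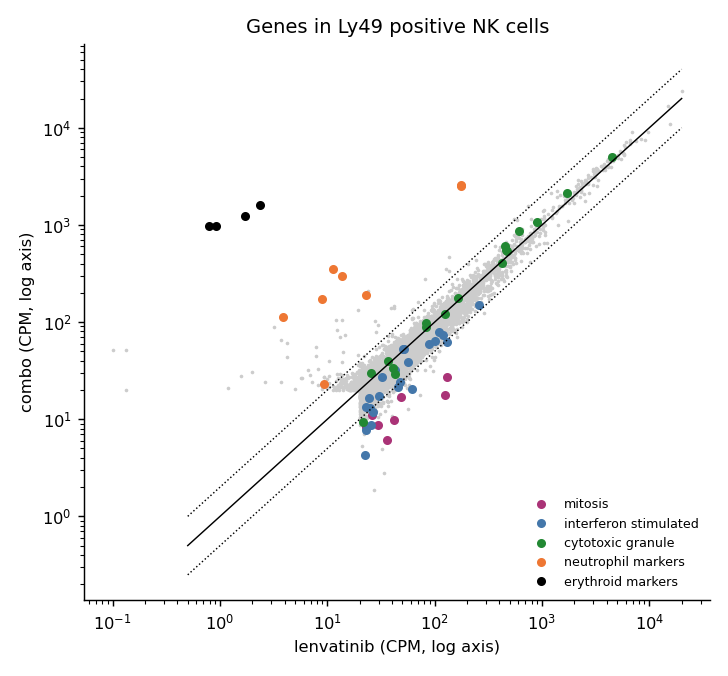
Level of each of the 5680 tested genes in Ly49 positive NK cells, in CPM on log axes, lenvatinib against combo, with named lists in color. The solid line marks equal levels and the dotted lines a 2-fold difference, and genes at 0 are drawn at the left or lower edge. Mitosis genes lie under the lower dotted line, neutrophil and hemoglobin genes above the upper one, and cytotoxic granule genes near the solid line.

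The killing machinery was present in both libraries and most of it was slightly higher under combo. Of 24 granule and death ligand genes, 17 were tested, none was 2-fold higher, 1 was 2-fold lower, and 12 had a ratio above 1 (14 after scaling by the median of ratios). Over all 5680 tested genes, 2079 were above 1 before that scaling, 1.36% were 2-fold higher and 1.88% were 2-fold lower. Prf1, which encodes the pore-forming protein perforin, was at 453 CPM under lenvatinib and 600 under combo, a ratio of 1.32 (1.25 to 1.40). Gzmb, a granzyme that starts apoptosis in the target cell, was at 606 and 863 CPM (1.42, 1.36 to 1.49). Gzma, another granzyme, was at 4504 and 4975 CPM (1.10, 1.08 to 1.13), and Nkg7, a granule membrane protein, at 1706 and 2144 (1.26, 1.22 to 1.29). In the thinned cells, Prf1 was found in 54.4% (51.2% to 57.6%) and 67.0% (62.3% to 71.4%), against 1.52% and 1.23% of B cells. Gzmb was found in 50.4% (47.2% to 53.6%) and 63.0% (58.3% to 67.6%), against 4.30% and 5.32% of B cells. In thinned NK cells without Klra4 and Klra8, Prf1 was found in 40.8% and 47.8% and Gzmb in 46.7% and 45.7%. In thinned CD8 T cells, Prf1 was found in 12.3% and 15.8% and Gzmb in 27.4% and 49.6%. The gene that was 2-fold lower was Tnfsf10, which encodes the death ligand TRAIL, at 21.6 and 9.27 CPM (0.428, 0.280 to 0.635), though its ratio turned to 1.08 when each cell was thinned to 2000 UMIs. Fasl, the other death ligand, was at 124 and 120 CPM.

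Effector cytokines and chemokines were at like levels in both libraries. None of the 9 tested genes of 13 passed 2-fold in either direction, and the median ratio was 1.02. Ifng, which encodes interferon-γ, was at 297 and 334 CPM (1.13), Xcl1, which attracts type 1 dendritic cells, at 1720 and 1868 (1.09), Ccl5, a chemokine for T cells and monocytes, at 4339 and 4848 (1.12) and Ccl4, a related chemokine, at 1649 and 1688 (1.02). Tgfb1, an inhibitory cytokine, had the lowest ratio, at 189 and 137 CPM (0.726).

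Of the Ly49 genes that the rule did not use, 5 were tested, of which 3 were lower under combo and 2 had ratios above 1. Klra8, at 802 and 659 CPM (ratio 0.822), and Klra4, at 781 and 697 (0.893), describe the choice of cells. Klra7, which encodes the inhibitory receptor Ly49G, was at 473 CPM under lenvatinib and 293 under combo (0.618, 0.575 to 0.664). Klra1, which encodes Ly49A, was at 170 and 96.7 CPM (0.569, 0.501 to 0.644) and Klra3, which encodes Ly49C, at 186 and 131 (0.704, 0.630 to 0.785), whereas Klra9, which encodes Ly49I, was at 231 and 249 (1.08, 0.991 to 1.17). Klra5 was at 13.6 and 21.3 CPM (1.57, 1.14 to 2.15). None passed 2-fold. Of all genes, 63.4% had a ratio under 1 before scaling by the median of ratios, so 3 of these 5 genes is near the share of all genes.

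For Klra1, Klra3, Klra7 and Klra9, the same direction was seen cell by cell. In cells thinned to 2000 UMIs (965 under lenvatinib, with 11 shallower cells left out, and 430 under combo), Klra7 was found in 48.5% (45.3% to 51.7%) and 40.2% (35.6% to 45.0%), against 1.52% and 0.409% of B cells. Klra1 was found in 17.5% (15.2% to 20.1%) and 11.2% (8.35% to 14.5%), Klra3 in 21.5% (18.9% to 24.2%) and 14.9% (11.7% to 18.6%) and Klra9 in 27.7% (24.9% to 30.6%) and 32.1% (27.7% to 36.7%). Without thinning, the 4 genes were found in 25.7% and 18.8%, 35.2% and 29.1%, 71.9% and 63.5% (Klra7) and 41.3% and 46.5% (Klra9). Of Klra1, Klra3, Klra7 and Klra9, none was detected in 23.2% of cells (20.6% to 26.0%) under lenvatinib and in 31.2% (26.8% to 35.8%) under combo, and 3 were detected in 6.11% (4.69% to 7.82%) and 2.79% (1.45% to 4.82%). In thinned NK cells without Klra4 and Klra8, all of these genes were found less often under combo, Klra9 included. Klra7 was found there in 26.1% and 15.1%, Klra1 in 9.57% and 4.08%, Klra3 in 15.7% and 8.16% and Klra9 in 21.6% and 13.5%.

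Since the rule used Klra4 and Klra8, how they split the cells is a description of the choice. Among thinned cells, 28.1% and 28.1% held Klra4 only, 29.6% and 28.6% held Klra8 only, 33.1% and 31.9% held both, and 9.22% and 11.4% held neither after thinning. As background, Klra4 was found in 2.78% and 0.409% of B cells, and Klra8 in 2.53% and in 0 of 489 cells, which allows a share of up to 0.613%. No gene differed by 2-fold in the same direction in both libraries between cells with Klra4 only (233 and 100 cells, without thinning) and with Klra8 only (253 and 104), among 5541 genes tested with at least 10 counts in each sum. Ccr7, a homing receptor for lymphoid tissue, fell short of that count and was at 22.3 CPM in Klra4-only and 1.06 in Klra8-only cells under lenvatinib (40 and 2 UMIs), and at 17.6 and 3.69 under combo (12 and 3 UMIs). Klra1 was at 187 and 98.1 CPM under lenvatinib and at 129 and 52.9 under combo, higher in Klra4-only cells in both, and Klra9 was at 214 and 326 and at 139 and 405, higher in Klra8-only cells in both. The last 300 bases of the transcripts were 83.2% identical between Klra1 and Klra4, 79.2% between Klra8 and Klra9 and 80.3% between Klra3 and Klra8. Klra3 was near even between Klra4-only and Klra8-only cells, at 170 and 184 CPM under lenvatinib and at 126 and 138 under combo. Reads could be split within these pairs, and the part of this in the values was not tested. Ccr7 and Klra5 were looked at after their values had been seen, and Klra5 was at 10.0 and 25.4 CPM under lenvatinib and at 0 and 41.8 under combo.

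**Figure D4:**
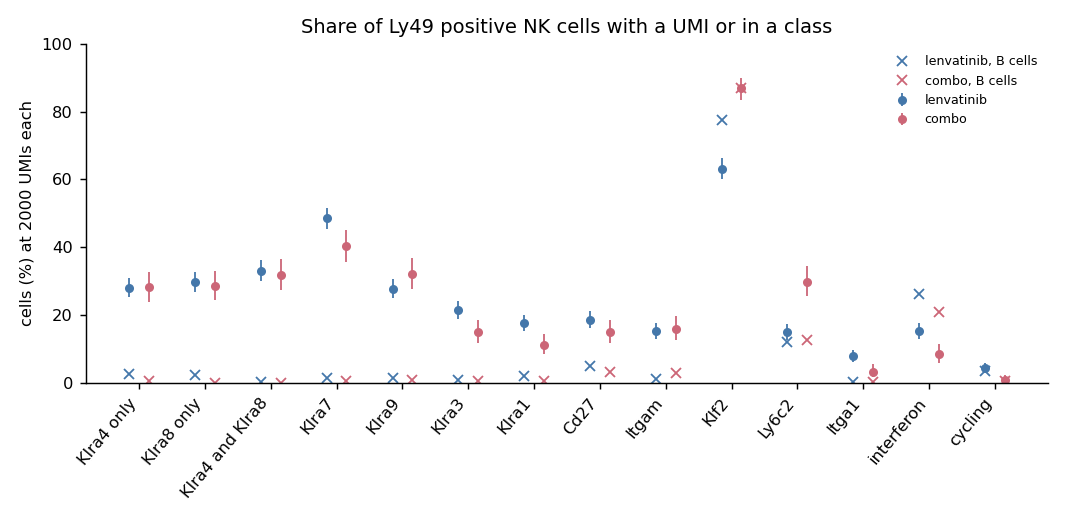
Percent of Ly49 positive NK cells in a Klra4 and Klra8 subset, with a UMI of a gene, with at least 5 UMIs of interferon-stimulated genes (interferon) or with at least 2 mitosis genes (cycling), each cell thinned to 2000 UMIs, with exact 95% intervals. Crosses are B cells. Klf2 and Ly6c2 lie higher under combo, cycling cells lie lower (4.25% and 0.930%), and the subsets by Klra4 and Klra8 describe the choice of cells.

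Other NK receptors were mostly even between libraries. None of 18 tested genes of 23 passed 2-fold in either direction, and the median ratio was 0.915. Klrd1, which encodes CD94, the partner of the NKG2 receptors, was at 872 and 1007 CPM (1.15). Klrc1, which encodes the inhibitory receptor NKG2A, was at 182 and 158 CPM (0.865) and Klrk1, which encodes the activating receptor NKG2D, at 527 and 491 (0.932). Tyrobp, which encodes DAP12, the adapter of Ly49D and Ly49H, was at 1984 and 2145 CPM (1.08). Of 16 tested adapters, kinases and linkers behind these receptors, 12 were under 1, against 63.4% of all genes, none passed 2-fold and the median was 0.850. They ranged from Plcg2, a phospholipase, at 51.4 and 26.3 CPM (0.510), to Fcer1g, an adapter of Fc receptors, at 1601 and 2001 (1.25). Of 10 inhibitory checkpoint genes, 4 were tested, none passed 2-fold, and their ratios ran from 0.668 to 1.56. Ctla4 was at 14.6 and 22.9 CPM, whereas Pdcd1 (0.791 and 0.618 CPM), Lag3 (8.97 and 6.18) and Tigit (4.22 and 4.94) were too low to test.

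Several transcription factors of NK identity were lower under combo. Of 21 tested factors, 16 had a ratio under 1 (15 after scaling by the median of ratios), against 63.4% of all genes, none passed 2-fold, and the median was 0.864 against 0.916 for all genes. Tbx21, which encodes T-bet, was at 92.7 and 52.8 CPM (0.570, 0.479 to 0.674), Eomes had a ratio of 0.643 (0.593 to 0.695), Gata3, a factor shared with T cells and innate lymphoid cells, was at 74.0 and 40.1 (0.543, 0.445 to 0.658) and Ikzf3, which encodes Aiolos, at 135 and 75.7 (0.559). In CD8 T cells of the same libraries, chosen by UMIs of Cd3 and Cd8 genes, the ratio was 0.659 for Tbx21 and 0.694 for Eomes. Zeb2 and Prdm1, factors of late NK maturation, had ratios of 1.07 and 1.20.

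Klf2, Ly6c2 and Cma1 were the members of the late maturation list past 2-fold. Klf2, a factor that keeps lymphocytes in circulation, was at 734 CPM (715 to 754) under lenvatinib and 1568 (1525 to 1612) under combo, a ratio of 2.14 (2.06 to 2.22). The ratio was 1.75 in NK cells without Klra4 and Klra8, 1.34 in CD8 T cells and 1.36 over all other kept cells. In thinned cells, Klf2 was found in 63.2% (60.1% to 66.3%) and 87.0% (83.4% to 90.01%), and in 77.5% and 87.1% of B cells, which also express it. Ly6c2, a surface antigen of mature NK and memory T cells, was at 136 CPM (128 to 145) and 334 (315 to 355), a ratio of 2.46 (2.26 to 2.68), while the ratio was 0.595 in CD8 T cells and 0.796 over all other kept cells. Ly6c2 was found in 14.9% (12.7% to 17.3%) and 29.8% (25.5% to 34.3%) of thinned cells, against 11.9% and 12.5% of B cells. Its share was also higher under combo in thinned NK cells without Klra4 and Klra8, at 21.0% (17.8% to 24.4%) and 37.6% (31.5% to 43.9%). Cma1, a mast cell and NK protease, was the third gene of the list past 2-fold, at 13.6 and 39.2 CPM (2.89, 2.21 to 3.78).

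The remaining maturation genes were close between libraries. Of the 9 tested late genes, 3 were 2-fold higher, against 1.36% of all genes, and the median ratio was 1.07. Of 12 early genes, all tested, none passed 2-fold and the median was also 1.07. Cd27, kept by immature NK cells, was at 103 and 113 CPM (1.09, 0.963 to 1.24), and Itgam, which encodes CD11b and is gained on maturation, was at 73.7 and 76.9 (1.04, 0.895 to 1.21). In thinned cells, Cd27 without Itgam was found in 15.5% and 12.6%, both genes in 3.11% and 2.33%, and Itgam without Cd27 in 12.1% and 13.5%, all with overlapping intervals. Neither was found in 69.2% and 71.6%, so these stages were mostly not detectable at this depth. B cells held Cd27 in 4.81% and 3.07% and Itgam in 1.01% and 2.86%. Klrg1, a late receptor, was found in 3.32% and 3.72% of the thinned NK cells.

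Genes for residence and homing differed in part. Itga1 had a ratio of 0.380 (0.290 to 0.492), and in thinned cells it was found in 7.77% (6.16% to 9.65%) and 3.26% (1.79% to 5.40%), with 0.253% and 0.204% in B cells. Ccr2, a chemokine receptor for entry into inflamed tissue, was at 509 and 332 CPM (0.653, 0.609 to 0.698). Cd69, which holds cells in tissue, was at 308 and 277 CPM (0.899). Of 17 tested genes of this list, 1 was 2-fold higher (Klf2) and 1 was 2-fold lower (Itga1).

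Of 26 tested genes of cytokine receptors and their signaling, 20 were under 1 (16 after scaling by the median of ratios), against 63.4% of all genes, 1 was 2-fold lower and the median was 0.791. Il2rb, the receptor chain for interleukin-2 and interleukin-15, on which NK cells depend, was at 1409 and 1006 CPM (0.714, 0.686 to 0.743). Il18rap and Il12rb1, chains of the receptors for interleukin-18 and interleukin-12, were at 189 and 123 CPM (0.648) and 22.9 and 13.6 (0.592). Stat4, which carries the interleukin-12 signal, went the other way, at 181 and 280 CPM (1.54, 1.42 to 1.68).

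Interferon-stimulated genes were lower under combo as a group. Of 35 genes, 34 were in the files and 22 were tested, 20 had a ratio under 1, 7 (31.8%) were at least 2-fold lower against 1.88% of all genes, none was 2-fold higher, and the median ratio was 0.579. The 7 included Isg15, Ifit2, Ifit3, Rsad2, Usp18 and Slfn8. After scaling by the median of ratios, 20 were still under 1 and 5 were 2-fold lower. Isg15, a ubiquitin-like modifier, was at 61.2 CPM (55.8 to 67.0) and 20.4 (15.8 to 25.9), a ratio of 0.333 (0.253 to 0.432). Ifit3, an antiviral effector, was at 22.3 and 4.32 CPM (0.194, 0.104 to 0.335), from 169 and 14 UMIs. Rsad2, which encodes the antiviral enzyme viperin, was at 22.8 and 7.72 CPM (0.338, 0.213 to 0.517). Ifit3 and Rsad2 reached 20 CPM only under lenvatinib, so the choice of tested genes favors a lower ratio for them. Isg15 reached it in both libraries. Irf7 and Ifi35 were the 2 genes above 1, at 1.05 and 1.03. Genes chiefly induced by interferon-γ had a median of 0.859 over 15 tested genes, none past 2-fold.

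Ratios of these genes were nearer to 1 in the cells compared. The median ratio over the 22 tested genes was 0.650 in NK cells without Klra4 and Klra8, 0.757 in CD8 T cells and 0.738 over all other kept cells. For Isg15 it was 0.719, 0.775 and 0.731, and for Ifit3 it was 0.929, 0.922 and 0.844. The genes chosen are those that reached 20 CPM in Ly49 positive NK cells, so the lists of the other cells are not their own. The difference between cell types was not tested.

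Few cells carried much of the interferon signal. In thinned cells, the sum over the 34 genes had a median of 2 UMIs in both libraries, and the 90th percentile was 6 under lenvatinib and 4 under combo. The 5% of cells with the highest sums held 29.6% of these UMIs under lenvatinib and 21.3% under combo. At least 5 UMIs were found in 146 of 965 cells, or 15.1% (12.9% to 17.5%), and in 36 of 430, or 8.37% (5.93% to 11.4%), a ratio of 0.553 (0.338 to 0.882), and at least 10 UMIs in 5.18% and 0.930%. Without thinning, 73.3% and 58.6% of cells held at least 5 UMIs. In thinned NK cells without Klra4 and Klra8, the share with at least 5 was also lower under combo, at 21.6% and 10.6%. It was 41.0% and 24.1% in thinned CD8 T cells, and 26.1% and 20.9% in thinned B cells, which also respond to interferon. A lower share under combo was thus not particular to the Ly49 positive cells.

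The promoter windows of Isg15 and Ifit3, the measured genes of this list with several matches and over 2-fold lower levels, are printed to show the letters that interferon-stimulated genes have in common. Capitals mark GAAANNGAA or its other strand TTCNNTTTC, an interferon response type of motif, with overlapping matches joined. The sequences are from RefSeq on GRCm38.p6, at chr4:156200769-156201068 on the minus strand for Isg15 and chr19:34583279-34583578 on the plus strand for Ifit3.
Isg15: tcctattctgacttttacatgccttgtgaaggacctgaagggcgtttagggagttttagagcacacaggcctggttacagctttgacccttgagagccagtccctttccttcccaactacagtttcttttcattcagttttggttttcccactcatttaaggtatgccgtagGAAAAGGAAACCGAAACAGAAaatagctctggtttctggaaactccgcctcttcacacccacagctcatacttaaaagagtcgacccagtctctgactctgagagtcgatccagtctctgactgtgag
Ifit3: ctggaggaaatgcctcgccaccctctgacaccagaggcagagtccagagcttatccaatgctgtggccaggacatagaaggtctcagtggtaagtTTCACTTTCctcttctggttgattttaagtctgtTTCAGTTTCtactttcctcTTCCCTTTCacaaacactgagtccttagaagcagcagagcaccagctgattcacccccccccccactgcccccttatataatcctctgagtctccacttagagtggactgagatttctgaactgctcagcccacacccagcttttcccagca
Of the 28 genes of the list with a window, 18 (64.3%) held the motif, against 2638 of 27025 genes (9.76%) with a window of the same length. Of the 5 genes with a window that were 2-fold lower, 4 held it, and Ifit2 did not. None of the 11 Ly49 genes and none of the 9 mitosis genes with a window held it.

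Cycling cells were rarer under combo. Of the 10 mitosis genes, 8 were tested and all 8 were at least 2-fold lower, against 1.88% of all genes. Their median ratio was 0.263 against 0.916 for all genes. When the cells were chosen after thinning (362 and 151 cells), Cenpe and Ccnb2 came to 1.03 and Tpx2 to 1.44. Mki67, a marker of cycling cells, was at 124 CPM (116 to 132) and 17.6 (13.3 to 22.8), a ratio of 0.142 (0.107 to 0.186), and Top2a, which untangles DNA in mitosis, was at 130 and 27.2 (0.209, 0.166 to 0.260). Nusap1, a spindle protein, was at 35.7 and 6.18 CPM (0.173). Mki67 and Nusap1 reached 20 CPM only under lenvatinib, and Top2a reached it in both libraries. The median of the same 8 genes was 0.347 in NK cells without Klra4 and Klra8 and 0.253 in CD8 T cells, and Mki67 had ratios of 0.393 and 0.223 there. A thinned cell was called cycling when it held UMIs of at least 2 of the 10 genes, which held for 41 of 965 cells, or 4.25% (3.07% to 5.72%), and for 4 of 430, or 0.930% (0.254% to 2.36%). Without thinning the shares were 11.2% and 3.26%, and in B cells, which can also cycle, they were 3.54% and 0.613% after thinning.

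Genes of DNA replication were lower by less. Of 15 tested S-phase genes, 14 were under 1 (13 after scaling by the median of ratios) and 3 were 2-fold lower, with a median of 0.711. Of all genes, 63.4% were under 1 before that scaling and 1.88% were 2-fold lower. Pclaf, a partner of the replication clamp, was at 69.1 and 31.8 CPM (0.460, 0.369 to 0.570), Rrm2, a subunit of the enzyme that makes deoxynucleotides, at 20.2 and 8.65 (0.429) and Pcna, the clamp itself, at 214 and 159 (0.740).

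The targets of palbociclib were expressed in these cells and differed little. Cdk4 was at 72.8 and 69.8 CPM (0.959, 0.818 to 1.12) and Cdk6 at 79.0 and 64.5 (0.817, 0.695 to 0.958). Among the D cyclins that activate them, Ccnd2 was at 442 and 395 CPM (0.895) and Ccnd3 at 173 and 211 (1.22), and Rb1, the protein that they inactivate, was at 21.6 and 21.3 (0.985). Cdkn2c, which encodes an inhibitor of both kinases, was the 1 of 12 tested genes of this list past 2-fold, at 36.7 and 13.6 CPM (0.371, 0.263 to 0.511). Cdkn1a, another cell cycle inhibitor, was at 65.5 and 91.4 CPM (1.39, 1.20 to 1.61).

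**Figure D5:**
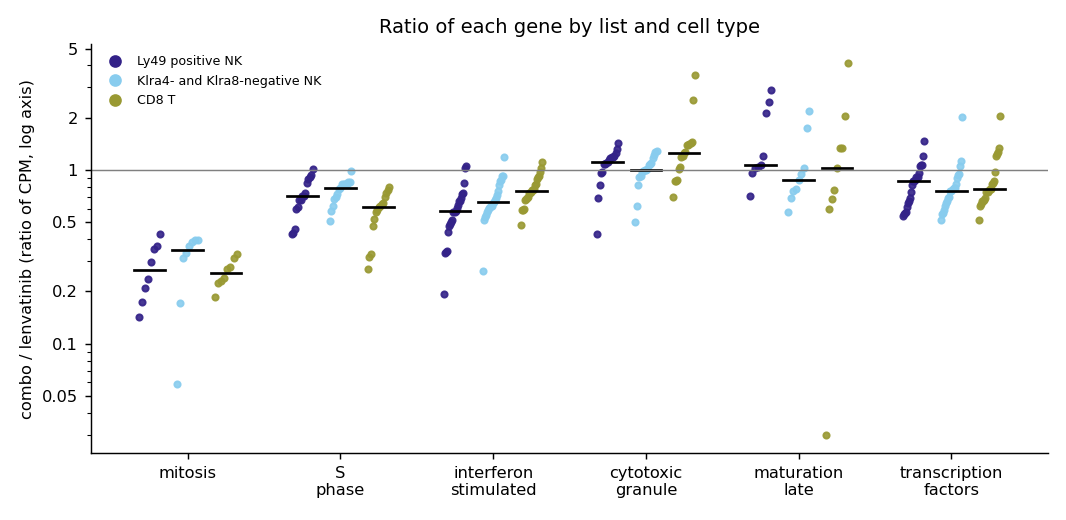
Ratio of combo to lenvatinib for each tested gene of 6 lists on a log axis, in Ly49 positive NK cells, in NK cells with no Klra4 or Klra8 UMI and in CD8 T cells, with the median as a black bar. All 8 mitosis genes lie under 0.5 in all 3 cell types, and the interferon-stimulated genes have their lowest median (0.579) in Ly49 positive NK cells.

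Glycolysis and early response genes were also listed. Of 15 glycolysis genes, 13 were above 1 and none passed 2-fold, with a median of 1.22, and Aldoa was at 362 and 604 CPM (1.67). Of all 5680 tested genes, 2079 were above 1 and 1.36% were 2-fold higher. Of 22 tested immediate early genes, 1 was 2-fold higher, Atf3, a stress factor, at 61.1 and 134 CPM (2.19, 1.92 to 2.50), and Egr1, induced by receptor signals, was at 154 and 82.5 (0.536). Among 8 tested survival genes, the median ratio was 1.11 and none was 2-fold lower. Bcl2a1b alone was 2-fold higher, at 63.3 and 137 CPM (2.16, 1.90 to 2.46).

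The 4 hemoglobin markers had the largest ratios of the listed genes, with a median of 871, and a median of 1.15 without the cells that held RNA of other types. By a rule of at least 50 CPM in 1 library and 10 counts in each, with mitochondrial, ribosomal protein and hemoglobin genes left out, the 12 highest were Lcn2, Ltf, Wfdc21, Ngp, Retnlg, Ifitm6, S100a8, Hp, S100a9, Ifitm1, Lyz2 and Camp. S100a8 was at 175 and 2564 CPM (14.7), and 5.96 times higher under combo without the cells that held RNA of other types, with 9.39 in NK cells without Klra4 and Klra8 and 14.3 in CD8 T cells. All 8 neutrophil markers were over 2-fold higher, and their median ratio was 16.7 with and 5.71 without those cells.

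To set aside genes much higher in other cells, a further rule, made after the data had been seen, took only genes whose combo level in neutrophils, Csf1r-positive cells, dendritic-like gates and B cells was less than 5 times that in the chosen cells. Genes that pass may still come from those cells. The 12 highest were then Sdc4, Ly6c2, Atf3, Klf2, Bcl2a1b, AY036118, Pmepa1, Pkp3, Ftl1, Hspa1a, Txnip and Camk2n1. Sdc4, a cell surface proteoglycan, was at 28.1 and 78.4 CPM (2.79, 2.32 to 3.37), with a ratio of 1.14 over all other kept cells. Txnip, a sensor of glucose and redox state, was at 244 and 440 CPM (1.80, 1.68 to 1.93). The 12 lowest genes by the first rule were Mki67, Top2a, Ube2c, Hist1h1b, Rnf213, Isg15, Itga1, AU020206, Atp8b2, Nsd2, Rif1 and Tnk2. Rnf213, a large ubiquitin ligase that interferon induces, was at 96.8 and 31.5 CPM (0.325, 0.262 to 0.401), with 0.502 over all other kept cells, and Nsd2, a histone methyltransferase, at 90.3 and 35.5 (0.393), with 0.393 over all other kept cells.

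Set against NK cells that met the same limits but had no UMI of Klra4 or Klra8 (630 and 247 cells, median 6630 UMIs under combo), few genes were higher in the Ly49 positive cells. Over 5992 genes, 0.0668% (4 genes) were at least 2-fold higher in both libraries and 0.617% (37 genes) at least 2-fold lower. These are descriptions, since the rule chose both sets. The 4 higher genes were Khdc1a (113 against 33.3 CPM under lenvatinib and 129 against 42.4 under combo), Klra1 (170 against 76.2 and 96.7 against 27.9), Cd55 (65.7 against 24.9 and 60.2 against 21.5) and Eya1 (55.1 against 24.9 and 46.3 against 15.0). Cd55 protects cells from complement.

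Of the 7 tested genes of the ILC1 list, 6 were among the 37 lower genes, against 0.617% of all genes, and none was among the higher. The neutrophil genes S100a8 (175 against 572 CPM under lenvatinib and 2564 against 5374 under combo) and Retnlg (8.97 against 64.4 and 171 against 602) were also among the 37, and the part of neutrophil RNA in the other differences was not tested. The 10 with the smallest ratios were Tmem176a, Tmem176b, Krt83, Ccdc184, Rora, Il7r, Il2ra, Socs2, Inpp4b and Gm36723. Il7r, which encodes the interleukin-7 receptor, was at 12.4 against 51.7 CPM under lenvatinib and at 21.6 against 192 under combo, and Rora, a factor of innate lymphoid cells, at 19.8 against 126 and at 29.0 against 253. Tmem176a was at 5.41 against 55.0 and 5.56 against 186 CPM, and Tnfsf10 at 21.6 against 59.1 and 9.27 against 62.8. Klrc1 was at 182 against 451 and 158 against 525 CPM. Gzma did not pass 2-fold under lenvatinib (4504 against 3727 CPM) and was at 4975 against 1880 under combo, and Eomes was at 382 against 233 and 245 against 119.

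Some genes varied strongly from cell to cell within each library. By the variance over the mean of UMIs in thinned cells, the 10 highest of 2441 genes were Cxcl2, Gm42418, Ccl4, Hspa1b, Malat1, Ccl5, S100a9, Gzma, S100a8 and Ccl3. Ccl4 had a mean of 3.86 UMIs and a variance 14.5 times the mean under lenvatinib, and 4.42 UMIs and 25.5 times under combo. Gzma had means of 9.32 and 11.9 UMIs, with variances 8.41 and 10.9 times the mean. Cxcl2, S100a8 and S100a9 are also neutrophil genes, and Cxcl2 was at 14664 CPM in neutrophils of the combo library.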

How the data were processed

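Live CD45+ cells were profiled with 3′ v3 chemistry. The deposited files hold UMI counts for every gene in every barcode, which the authors aligned to mm10 and left without normalization. The submitters' processing notes name Cell Ranger 5.0.1, whereas the header of the deposited count matrices names 6.0.1. Cells with over 6000 genes or over 25% mitochondrial UMIs were removed, as in the study's methods (308 under lenvatinib, 376 under combo). The Ly49 positive NK cells and all gene lists were chosen with earlier results of these data known.

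UMIs were summed per gate and library and given as CPM with exact Poisson 95% intervals. Ratios have exact conditional intervals and shares Clopper-Pearson intervals (scipy 1.17.1). No p-value is given, since each condition is 1 library and cells of a library do not replicate it. Shares of cells rest on 2000 UMIs drawn at random from each cell, without shallower cells. Genes with at least 20 CPM in 1 library were tested against 2-fold. A sum of 3 counts was the floor for a count of 0. Doublets were called with Scrublet in scanpy 1.11.5. CD8 T cells held at least 2 UMIs of Cd3 genes and of Cd8a and Cd8b1, and none of Ncr1 or Klrb1c. B cells held at least 2 UMIs of Cd79a and no Cd3, Ncr1 or Csf1r UMI. Neutrophils held at least 100 UMIs of S100a8 and S100a9. Genes named were those of the lists, the 12 with the highest and lowest ratios (hemoglobin, mitochondrial and ribosomal protein genes left out), the 10 that set the cells apart from NK cells without Klra4 and Klra8, and the 10 most variable. Steps were tested on simulated data. Gene coordinates are from GENCODE and promoter windows from RefSeq (GRCm38.p6), and alignments used Biopython 1.88.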

Additional observations from a re-analysis of the deposited data

How the results depend on the processing

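With 1 library per condition, no replicate could be left out. No paired analysis was possible because each group has 1 library and the result comes from no test. The ratio of the share of kept cells, 0.539, became 1.0 with the cells positive for Ncr1 and Klrb1c as the denominator. The 77 genes at least 2-fold higher became 254 when the cells were chosen after thinning, 41 without the cells that held RNA of other types, 1495 with no filter on low counts and 39 with a filter of 50 CPM. The 107 lower genes became 68 with scaling by the median of ratios, 596 when the cells were chosen after thinning, 903 with no filter, 30 with a filter of 50 CPM and 246 in thinned cells. The share of lower genes among those past 2-fold moved from 58.2% to 41.2% with scaling by the median of ratios and to 71.9% without the cells that held RNA of other types. Of 4 gene values that turned, Cenpe and Ccnb2 came to 1.03 and Tpx2 to 1.44 when the cells were chosen after thinning (362 and 151 cells), and Tnfsf10 came to 1.08 in thinned cells. The share with both Cd27 and Itgam had a ratio of 0 at 1000 UMIs. The ratio of cells with interferon-stimulated UMIs, 0.553, was 0.162 at 1000 UMIs and 0.180 with at least 10 UMIs. The 4 genes higher and 37 lower than in NK cells without Klra4 and Klra8 became 1 and 5 when cells were thinned before gating, and 7 were higher by the mean of CPM per cell. The cause was not tested, apart from the filters and thinning, which change the genes and UMIs counted. In all, 2934 of 3367 values of 259 named or listed genes under the alternatives lay within the interval of the value reported, 429 lay outside it in the same direction and 4 turned. Depth limited genes under 20 CPM, which rest on few UMIs, and the Cd27 and Itgam stages.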
